A study of Homo sapiens with 24 samples.

Results

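U1 and U2 are the small nuclear RNAs (snRNAs) that open spliceosome assembly. The genes analysed here are the rows of the deposited small RNA table that are not typed as long non-coding RNA (lncRNA) and carry any of 5 names, RNU1-1, RNU1-2, RNU1-3, RNU1-4 or RNU2-1. This rule found 18 of 175946 rows, 6 named RNU1-1 and 12 named RNU2-1. The names RNU1-2, RNU1-3 and RNU1-4 matched no row, but 3 of the rows named RNU1-1 lie over those genes in RefSeq (GRCh38.p14). The same 18 rows were followed in the ATAC-seq table by row number, together with the flanks counted beside each.

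The cells were HEK293, an established human embryonic kidney line, labelled wild type in all groups. Cells of each group overexpressed 1 protein: eGFP as the control (GFP below), or a nuclear lamin, encoded by LMNA, LMNB1 or LMNB2. Lamins are filament proteins of the inner nuclear envelope. Each of the 4 groups had 3 replicates of small RNA-seq, made from RNA with its small fraction enriched, and 3 of ATAC-seq, which reports DNA that a transposase can reach. The vector, its promoter and the time after its delivery are not given in the sources used here. The labels give batch 1 to all small RNA and batch 2 to all ATAC libraries, so all comparisons made here lie within 1 batch. Nothing says that replicates were separate cultures, so p-values measure only the spread between these libraries. The study's title links RNA polymerase III activity to genome organisation, and the comparison here asks whether these RNA polymerase II genes differed between the lamin groups and GFP.

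U1 binds the start of an intron at the 5′ splice site, and U2 then pairs with the branch site near its end. Both are short capped RNAs made by RNA polymerase II from promoters that the snRNA-activating complex recognises, and both pass through Cajal bodies, where small Cajal body RNAs guide their chemical modification. They exist in many gene copies, U1 mainly on chromosome 1 and U2 as a tandem array on chromosome 17, and they are among the most abundant nuclear RNAs of dividing cells.

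Counts over the features summed to between 132507051 and 195074742 per small RNA library and between 156043245 and 290158229 per ATAC library, with overlapping features counted repeatedly. The 3 GFP small RNA libraries differed most in composition: their scaling factors by the trimmed mean of M values (TMM) were 0.631, 0.905 and 1.31, against 0.878 to 1.16 in the other 9. Of rows over the overexpressed genes, 8 of 8 over LMNB2 and 3 of 5 over LMNB1 were called higher in the matching small RNA libraries, while the 1 tested row over LMNA gave a log2 fold change of −0.09 and so gave no check of that label. In ATAC-seq 1 of 6 windows over LMNA, 3 of 6 over LMNB1 and 2 of 8 over LMNB2 were called higher in the matching group. Called or not, the 8 windows over LMNB2 had log2 fold changes of 8.71 to 10.9. The windows over LMNA ranged from −0.04 to 8.65 and those over LMNB1 from −0.02 to 9.90. The tables hold non-coding features, so protein-coding markers of the cell line were not examined.

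The 6 U1 rows lie on chromosome 1 (GRCh38). RNU1-1 runs from 16514097 to 16514310 and RNU1-3 from 16666760 to 16666973, both on the minus strand. RNU1-4 runs from 16740493 to 16740704 and RNU1-2 from 16895957 to 16896168, both on the plus strand. The 2 distant rows lie over RNVU1-18, from 143729382 to 143729595 on the minus strand, and over LOC124904613, from 146376784 to 146376995 on the plus strand. Each deposited interval is 212 or 214 bp long and extends 23 or 25 bp beyond the 164 bp RefSeq gene on either side. The rows are called by their RefSeq genes below.

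The 12 U2 rows lie on the minus strand of chromosome 17 between 43233765 and 43300256. The first, over RNU2-1, ends at 43234002, and the other 11 lie over RefSeq genes with LOC identifiers, from LOC124904135 to LOC124904144 and LOC124904146. Neighbouring copies start between 1259 and 14804 bp apart. The deposited intervals are 238 or 239 bp long and the RefSeq genes in them 188 to 192 bp.

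Copies of a gene did not give separate measurements of RNA. In each library the 12 U2 copies had nearly equal small RNA counts, with a coefficient of variation (CV) among copies of 0.505% to 1.02%, where counting error alone gives 0.556% to 0.693%. A lncRNA row that contains all 12 copies, lnc-LINC00854-1, held 12.4 to 12.8 times the mean count of 1 copy. The 12 rows therefore give 1 measurement of U2. The 6 U1 copies were also close, with a CV of 6.00% to 9.86%, but not equal within counting error of 0.574% to 0.859%. The 3 plus-strand copies exceeded the 3 minus-strand copies in 12 of 12 libraries, by 1.11 to 1.20 times. The 6 U1 rows are not taken as 6 separate measurements either. Counts of U1 or U2 copies given below are therefore counts of rows.

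The counting did not separate strands at these genes. The plus-strand row AL137798.2, which contains the minus-strand RNU1-3, held 100.04% to 100.13% of the RNU1-3 count in each library. AL021920.3, on the strand opposite RNU1-4, held 100.05% to 100.14% of the RNU1-4 count. Values at these rows therefore include any antisense RNA.

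U1 and U2 ranked among the highest features of the small RNA libraries. Averaged over the 12 libraries, the U1 copies had 626 to 727 CPM per kb (CPM, edgeR's counts per 1e+06 on TMM-scaled library sizes), and the U2 copies 702 to 716. By this length-adjusted level they ranked between 263 and 297 of 33893 features that passed the filter on low counts. All 18 rows passed that filter in both assays.

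The U1 level was highest in the LMNB2 libraries. RNU1-1, taken as the example because it is the named gene, had 107, 117 and 91.5 CPM in GFP replicates 1 to 3. The LMNA libraries had 168, 120 and 133 CPM, the LMNB1 libraries 114, 131 and 122 CPM, and the LMNB2 libraries 169.7, 169.5 and 164.5 CPM. The LMNB2 libraries all lay above the GFP libraries by a wide margin, the LMNA libraries lay above them narrowly, and the LMNB1 libraries overlapped them. The mean of the 6 copies showed the same order, with 113 ± 13.0 CPM in GFP, 131 ± 8.20 in LMNB1, 153 ± 29.6 in LMNA and 180.1 ± 3.61 in LMNB2 (mean ± SD, n = 3). In that order GFP and LMNB1 overlapped, LMNB1 and LMNA overlapped, and LMNA and LMNB2 overlapped. In bulk RNA, fewer cells with a transcript and less of it per cell cannot be told apart.

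**Figure D1:**
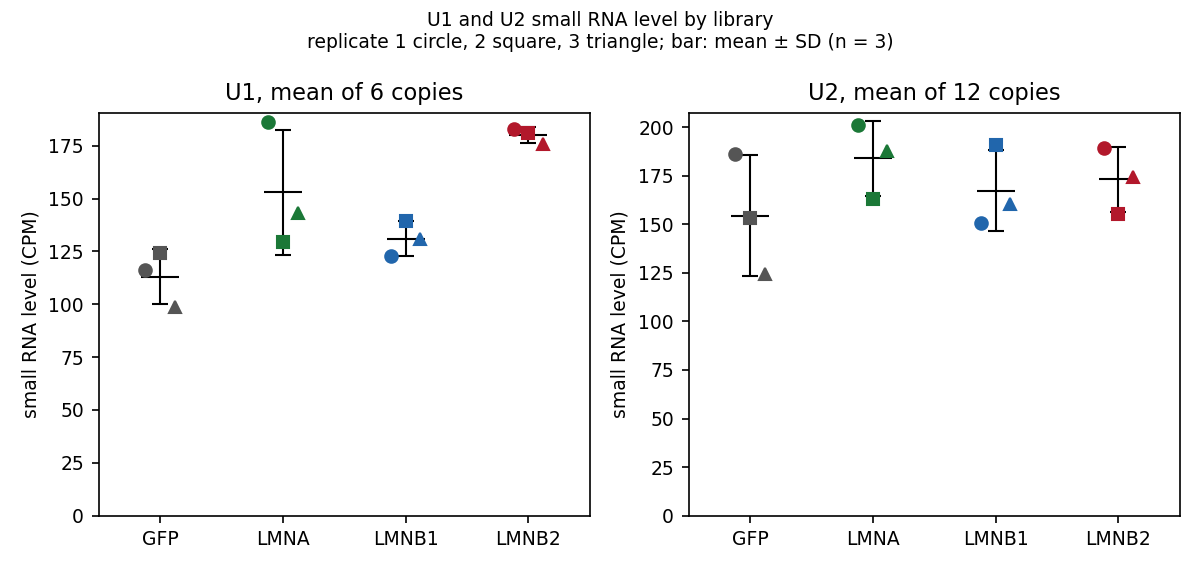
Small RNA level of U1 (left, mean of 6 copies) and U2 (right, mean of 12 copies) in CPM, each point 1 library, by group; bars give the mean ± SD (n = 3). The 3 LMNB2 libraries sit at 176 to 183 CPM for U1, above the GFP range of 98.7 to 124.1 CPM, whereas all groups overlap for U2.

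The U1 difference did not pass the threshold of an adjusted p under 0.05 in edgeR. For LMNB2 against GFP, RNU1-1 had a log2 fold change of 0.67 ± 0.22 (SE), a fold of 1.59, with an adjusted p of 0.110 by edgeR's quasi-likelihood method (Benjamini-Hochberg). Over the 6 copies the log2 fold change was 0.65 to 0.68 and the edgeR quasi-likelihood adjusted p 0.109 to 0.125, so 0 of 18 members were called, where 2.66% of all tested features were. All 6 U1 copies had an unadjusted p under 0.05 in edgeR, as did 19.9% of all features. The 3 LMNB2 libraries lay above the 3 GFP libraries at 6 of 6 U1 copies and 0 of 12 U2 copies, against 12.1% of all features. Because the copies are not separate measurements, 6 of 6 does not stand for 6 separate results.

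The call depended on the tool. DESeq2 gave nearly the same fold, a mean log2 fold change of 0.67, but called all 6 U1 copies and none of the 12 U2 copies in LMNB2, with adjusted p from 0.00215 to 0.00651, where DESeq2 called 7.56% of the features to which it gave an adjusted p. Without GFP replicate 3, edgeR's quasi-likelihood test called 1 U1 copy, with an adjusted p of 0.0466, and without GFP replicate 1 the lowest adjusted p was 0.0521. Leaving out other libraries raised it: over the 12 such fits the lowest edgeR quasi-likelihood adjusted p of a U1 copy reached 0.267.

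For LMNA against GFP the U1 copies had log2 fold changes of 0.41 to 0.47, and 0 of 18 members were called, where edgeR called 0% of all features. The lowest edgeR quasi-likelihood p of a U1 copy was 0.0501 unadjusted and 0.895 adjusted. Before adjustment 0 of the 18 fell under 0.05, against 5.46% of all features. DESeq2 called none of them, and 26 of the 7493 features to which it gave an adjusted p. All 6 copies, which are not separate measurements, were above GFP without overlap, against 4.16% of all features. For LMNB1 against GFP the U1 log2 fold change was 0.21 to 0.22, and 0 of 18 members were called, against 0.0384% of all features. Again 0 of the 18 had an unadjusted p under 0.05 in edgeR, against 5.51% of features. DESeq2 called none of them, and 22 of 30795 features. At 2 of the 6 copies, RNU1-4 and LOC124904613, LMNB1 did not overlap GFP, against 4.76% of features that lay higher without overlap. The 3 lamin comparisons share their GFP libraries.

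U2 varied as much within groups as between them. RNU2-1 had 185, 152 and 124 CPM in GFP and 199, 163 and 188 CPM in LMNA. In LMNB1 it had 150.2, 192 and 162 CPM, and in LMNB2 189, 156 and 172 CPM. All lamin groups overlapped GFP, whose replicate 1 stood among the higher and replicate 3 below all other libraries. The U2 log2 fold changes over the 12 copies were 0.25 to 0.27 in LMNA, 0.10 to 0.13 in LMNB1 and 0.15 to 0.17 in LMNB2, with no edgeR quasi-likelihood adjusted p below 0.726. The median over all tested features was −0.05, −0.05 and −0.04 in the same comparisons.

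In edgeR the joint tests over the groups called no member. In the joint test of the 4 groups, the U1 copies had p of 0.0367 to 0.0482 before and 0.282 to 0.311 after adjustment (edgeR, quasi-likelihood). In it 0 of 18 members were called, against 1.68% of all features, and 6 had an unadjusted p under 0.05, against 15.9%. DESeq2's likelihood-ratio test of the 4 groups called the 6 U1 copies, against 3.95% of features. In the joint test of whether the 3 lamins differ from each other, edgeR called 0 of 18 members, against 1.93% of all features, with a lowest adjusted p of 0.453 among the U1 copies. Before adjustment 0 of the 18 fell under 0.05, against 16% of features. DESeq2 called none of them, and 668 of 22047 features.

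Because a ratio of counts within a library does not depend on scaling between libraries, U1 was also set against U2 directly. The log2 ratio of the mean U1 count to the mean U2 count was −0.68, −0.30 and −0.33 in GFP. The LMNA libraries gave −0.11, −0.33 and −0.39, the LMNB1 libraries −0.29, −0.45 and −0.30, and the LMNB2 libraries −0.05, 0.22 and 0.01. The 3 LMNB2 libraries held the 3 highest ratios of the 12 and did not overlap any other group. The other 3 groups overlapped one another, and GFP replicate 1 was the lowest library. The counts are not adjusted for length, so the ratio compares libraries and does not give the relative number of U1 and U2 molecules.

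The mean ratio in LMNB2 was higher than in GFP by 0.50 on the log2 scale, and the 4 groups differed with p = 0.0149 (exact permutation test over all 15400 divisions of the 12 libraries into 4 groups of 3). Adjusted over the 3 main exact 4-group tests, this one and those of U1 and U2 ATAC signal below, p was 0.0448. Versions with other U1 or U2 rows or other flank widths were not counted in that adjustment. For LMNB2 against GFP alone the two-sided exact permutation p was 0.1, the smallest that 3 libraries against 3 allow. Without LMNB2 replicate 2, which had the highest ratio, the difference from GFP was 0.42 and the exact 4-group p 0.0605. LMNA and LMNB1 differed from GFP by 0.16 and 0.09, with exact permutation p of 0.6 and 0.5.

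**Figure D2:**
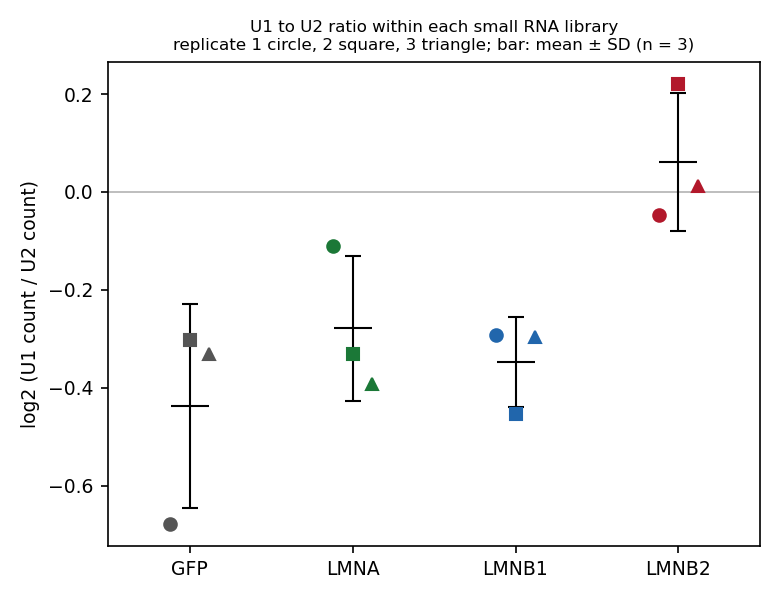
Log2 ratio of the mean U1 count (6 copies) to the mean U2 count (12 copies) within each small RNA library, by group; bars give the mean ± SD (n = 3). The LMNB2 points lie between −0.05 and 0.22, above all points of the other 3 groups, of which the highest is −0.11.

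The ratio also depended on which U2 row was used. The U2 gene RNU2-2 lies outside the array, on chromosome 11, and its row gave a similar picture: with it as the U2 level the LMNB2 difference was 0.65, with an exact 4-group permutation p of 0.0298. RF00004, a further U2-like row inside the array with another name, had 87.2, 65.3 and 96.2 CPM in GFP and 121, 95.1 and 109 in LMNB2. With RF00004 as the U2 level the difference was 0.28 and the exact permutation p 0.399. Both of these choices were made after the values were seen.

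The other RNAs of the spliceosome were 20 rows over U4, U5, U6 and the minor spliceosome's U11, U12, U4atac and U6atac. In small RNA-seq, for each lamin against GFP and in both joint tests, 0 of the 20 were called in edgeR or DESeq2. Over all features edgeR called 0%, 0.0384% and 2.66% for LMNA, LMNB1 and LMNB2. In its joint tests it called 1.93% (3 lamins) and 1.68% (4 groups). DESeq2 called 26 of 7493 features in LMNA, 22 of 30795 in LMNB1 and 7.56% in LMNB2. Its joint tests called 668 of 22047 (3 lamins) and 3.95% (4 groups). It gave an adjusted p to 19 of the 20 in LMNA, in LMNB2 and in the 4-group test. Before adjustment edgeR put 0 of the 20 under 0.05 for LMNA, 2 for LMNB1 and 1 for LMNB2, against 5.46%, 5.51% and 19.9% of all features. The U5 RNA holds the exons in place during splicing, and its 5 rows had log2 fold changes from −0.61 (RNU5F-1) to −0.20 (RNU5E-1) in LMNB2, with the lowest edgeR quasi-likelihood adjusted p at 0.156 for RNU5F-1. RNU5F-1 and RNU5D-1 lay below GFP without overlap in LMNB2, against 10.2% of all features. The LMNB2 values of U5 and U1 thus had opposite signs, but a difference between the 2 families was not tested.

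U4 and U6 enter the spliceosome as a base-paired complex. RNU4-1 and RNU4-2 had log2 fold changes of 0.16 and 0.38 in LMNB2. The 9 U6 rows, made by RNA polymerase III, were all below 0 in LMNB1, from −0.73 to −0.27, and in LMNB2, from −0.25 to −0.02. All 9 were above 0 in LMNA, from 0.08 to 0.20. Their near-identical sequences mean that reads may be shared among them. Among the minor spliceosome RNAs, RNU4ATAC had the highest log2 fold change in LMNB2, 0.31, and RNU6ATAC the lowest, −0.25. In LMNA the highest of the 20 was RNU11 at 0.35 and the lowest RNU5F-1 at −0.27. In LMNB1 the highest was again RNU11, at 0.33, and the lowest a row named for RNU6-7 and RNU6-1, at −0.73.

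**Figure D3:**
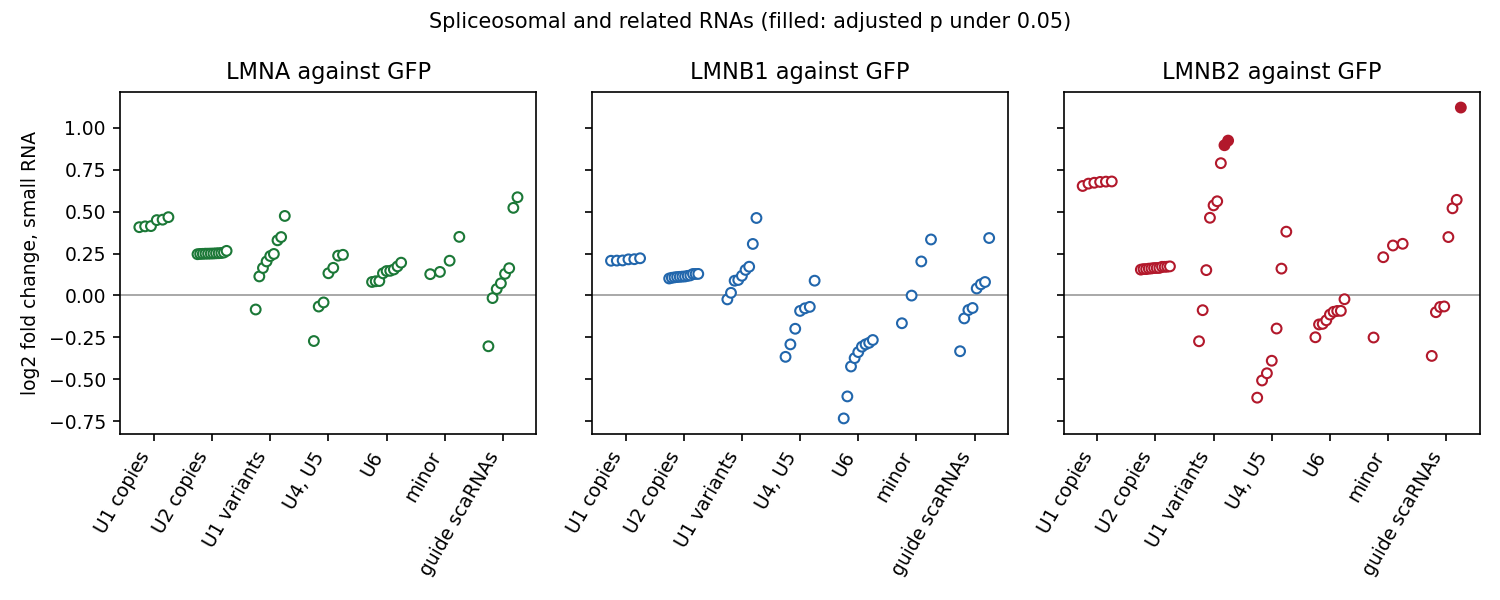
Log2 fold change of each row against GFP in small RNA-seq (edgeR), by gene list, with 1 panel per lamin; filled points have an adjusted p under 0.05 and rows within a list are ordered by value. The U1 copies lie at 0.65 to 0.68 in LMNB2 beside 2 called U1 variants, the U2 copies lie at 0.15 to 0.17, and the 5 U5 rows lie below 0.

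U1 variants are diverged genes of the U1 family, named RNVU1. Of 12 variant rows 9 passed the filter, and 2 of them were called in LMNB2, both higher, where 2.66% of all features were called. The 2 called rows had similar levels in each GFP and LMNB2 library, so they may not be separate measurements. The variant with the highest mean count, RNVU1-7, had 62.5, 60.2 and 56.1 CPM in GFP and 105, 102 and 102 CPM in LMNB2. The LMNB2 libraries of RNVU1-7 were all far above GFP, with a log2 fold change of 0.79 ± 0.22 (SE) and an edgeR quasi-likelihood adjusted p of 0.0588. DESeq2 called RNVU1-7, as did edgeR without GFP replicate 1 or without GFP replicate 3 (adjusted p of 0.0319 and 0.0170). It stayed uncalled in 14 of the 19 alternative settings, with edgeR quasi-likelihood adjusted p from 0.0561 to 0.193. Over these 19 settings its log2 fold change was 0.30 to 0.60 in LMNA and 0.13 to 0.34 in LMNB1, without a call.

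The called variants, named after their values were seen, were RNVU1-19 and RNVU1-1. RNVU1-19 had 23.9, 28.9 and 27.4 CPM in GFP and 44.6, 54.7 and 52.9 CPM in LMNB2. Its libraries did not overlap between these groups, and the log2 fold change was 0.92 ± 0.20 (SE, edgeR quasi-likelihood adjusted p = 0.0282). RNVU1-1 had 25.2, 30.7 and 30.5 CPM in GFP and 47.7, 56.1 and 56.9 CPM in LMNB2, and its log2 fold change was 0.90 ± 0.20 (SE), with 0.0316 as the adjusted p from edgeR's quasi-likelihood fit. In LMNA and LMNB1 neither variant was called, with log2 fold changes of 0.24 and 0.12 for RNVU1-19 and 0.20 and 0.09 for RNVU1-1.

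Both calls were close to the threshold. With only the 6 GFP and LMNB2 libraries in the fit, the edgeR quasi-likelihood adjusted p was 0.139 for RNVU1-19 and 0.149 for RNVU1-1. Without LMNB2 replicate 1, 2 or 3, it was 0.0583, 0.141 and 0.111 for RNVU1-19 and 0.0679, 0.147 and 0.127 for RNVU1-1. Without LMNB1 replicate 1 it was 0.0503 for RNVU1-19 and 0.0569 for RNVU1-1, and the RNVU1-1 call was also lost without GFP replicate 2 (0.0505), LMNA replicate 2 (0.0521) or LMNB1 replicate 2 (0.0552). DESeq2 called both variants. How far the variants share reads with one another or with the U1 copies was not tested.

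Small Cajal body RNAs guide the 2′-O-methylation and pseudouridylation of spliceosomal RNAs. Of 8 such RNAs listed as guides of U1 or U2, edgeR called 1 in LMNB2, SCARNA18, where it called 2.66% of all features. SCARNA18 had 0.765, 0.786 and 0.986 CPM in GFP and 1.78, 1.77 and 2.03 CPM in LMNB2, so it was a low-abundance RNA whose groups did not overlap. Its log2 fold change was 1.12 ± 0.17 (SE), and its edgeR quasi-likelihood adjusted p 0.00365, and 0.0279 in the joint test of the 3 lamins. With only the 6 libraries compared in the fit, its adjusted p was 0.0732. SCARNA18 was also above 0 in the other lamins: 0.40 to 0.71 in LMNA and 0.24 to 0.52 in LMNB1 over 19 alternative settings. Of these, 1 called it in LMNA (edgeR quasi-likelihood adjusted p 0.0365). In the main fit edgeR called 0 of the 8 guides in LMNA and in LMNB1, against 0% and 0.0384% of all features. The other guides ranged from −0.36 (SCARNA15) to 0.57 (SCARNA16) in LMNB2 with none called by edgeR, while DESeq2, which called 7.56% of features, also called SCARNA2, at 0.52 in edgeR.

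The features whose level moved most like U1 over the 12 small RNA libraries were other U1 rows. Likeness was Pearson's r of log2 CPM with the mean U1 level, among 2647 features with levels at or above the median. Rows of lncRNA, rows with names starting RNU1-, RNVU1- or RNU2-, and rows overlapping a member were not candidates. The first 3 were a pair of rows annotated as U1 on chromosome 14, with r = 0.999 and 0.996, and RF00003, a U1 row on chromosome 1, with r = 0.995. Such rows may hold the same reads as the U1 copies. With the remaining U1 and U2 rows also left out, a step added later, the next were SNORA23 (r = 0.953, Spearman's rho = 0.888), SCARNA22 (r = 0.924, rho = 0.811) and SNORA71A (r = 0.913, rho = 0.720). U2 was most like SNORD32A (r = 0.913, rho = 0.888), SCARNA11 (r = 0.911, rho = 0.874) and tRNA-Arg-TCT-3-1 (r = 0.880, rho = 0.853). These 12 points share their libraries' depth and composition.

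In ATAC-seq the U1 and U2 genes gave strong signal in all groups, with no difference between groups called. Each ATAC window covers the deposited interval and 125 bp beyond it on both sides. RNU1-1 had 13.4, 11.3 and 11.3 CPM in GFP and 11.7, 10.5 and 13.0 CPM in LMNB2. The LMNA libraries had 12.8, 12.6 and 11.0 CPM and the LMNB1 libraries 13.5, 12.9 and 11.5 CPM. The groups overlapped throughout. The mean over the 6 U1 windows was 10.6 ± 1.37 CPM in GFP and 10.6 ± 1.16 in LMNB2, and over the 12 U2 windows 15.6 ± 2.19 and 15.7 ± 1.70 (mean ± SD, n = 3).

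No member window was called in any ATAC comparison. In edgeR 0 of 18 were called for LMNA, LMNB1 and LMNB2 against GFP, where 0.000611%, 0.00305% and 0.00244% of all windows were called. The counts were also 0 of 18 in the joint tests of the 3 lamins and of the 4 groups, where 0.0916% and 0.0421% were called. Before adjustment 1 of 18 fell under 0.05 in LMNB1, against 4.78% of all windows. The same count was 0 in LMNA and in LMNB2, against 5.19% and 5.72%, and 0 in the joint tests, against 6.24% and 5.81%. At 0 of the 18 windows did a lamin group lie apart from GFP, against 9.55% of all windows in LMNA, 8.46% in LMNB1 and 10.3% in LMNB2. DESeq2 called none of the members in these comparisons, although it gave no adjusted p to 9 of the 18 in LMNB1. Of all windows with an adjusted p it called 59 of 107582 in LMNA, 62 of 8786 in LMNB1 and 108 of 97362 in LMNB2. Its joint tests called 745 (3 lamins) and 690 (4 groups) of 97362. Over the 3 lamins, log2 fold changes ranged from −0.11 (LOC124904613 in LMNB2) to 0.14 (RNU1-2 in LMNB1) for the U1 windows and from −0.06 (LOC124904142 in LMNB2) to 0.17 (LOC124904140 in LMNB1) for the U2 windows.

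Window levels were also set against their surroundings. The U1 windows exceeded the 5000 bp flanks per base by 5.71 on the log2 scale in GFP and 5.72 in LMNB2, and the U2 windows exceeded theirs by 3.47 and 3.49. The exact permutation p over the 4 groups was 0.981 for U1 and 0.788 for U2. The U1 difference between LMNB2 and GFP was 0.01 and the U2 difference 0.02. The mitochondrial share of ATAC counts fell between 39.9% and 47.5% in GFP and between 24.5% and 30.7% in LMNB2. Scaling without mitochondrial windows left all 18 members uncalled.

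Unlike the RNA counts, the ATAC counts differed between copies. How reads that map to several copies were assigned is not given, so counts at 1 copy or its flanks may include reads from others. Within a library the 12 U2 windows had a CV of 61.0% to 70.9%, where counting error gives 1.41% to 1.96%, and the 6 U1 windows had a CV of 24.7% to 30.7%. LOC124904138 stood out, with 40.9 to 55.6 CPM in GFP and 39.7 to 54.9 CPM in LMNB2. The next highest U2 window, LOC124904144, had 14.1 to 18.8 CPM in GFP, so the 2 did not overlap in any group. RNU2-1, at the end of the array with the lowest coordinate, had the lowest mean of the 12, 8.17 CPM. Among the U1 windows, RNVU1-18 (mean 6.12 CPM) and LOC124904613 (7.86 CPM) were lower than RNU1-1, RNU1-2, RNU1-3 and RNU1-4, which had means of 12.1 to 13.4 CPM.

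**Figure D4:**
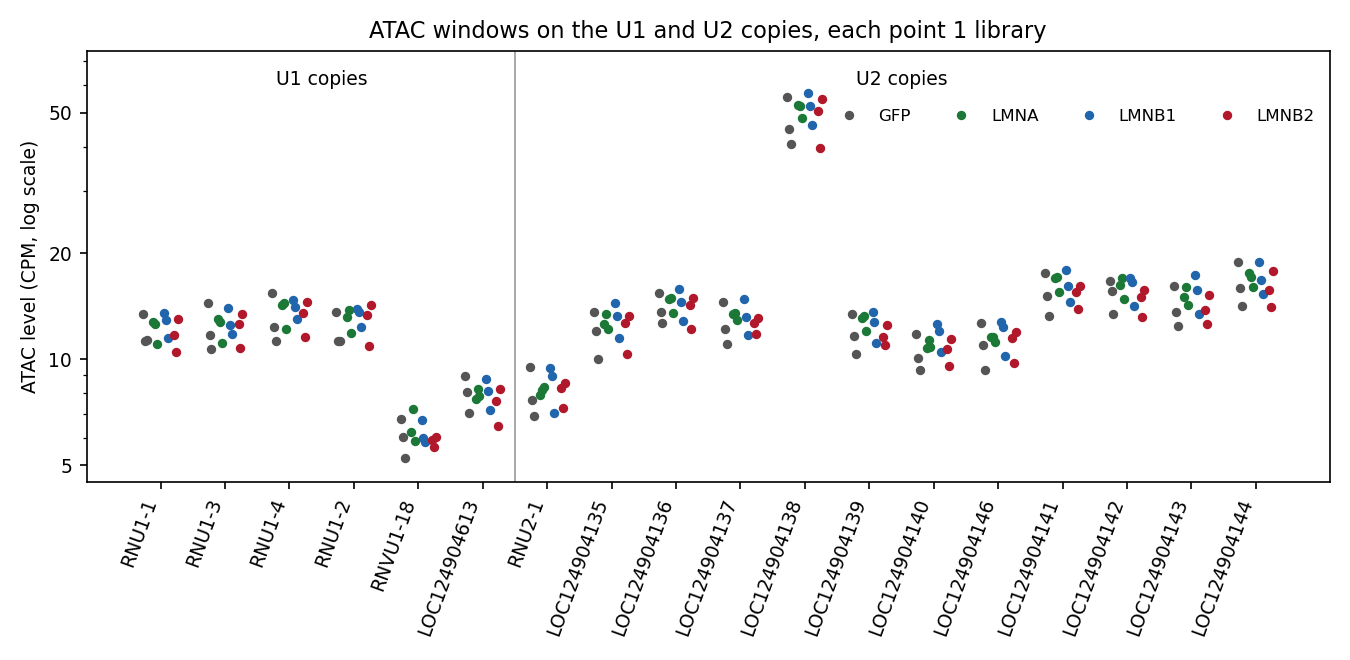
ATAC level of each U1 and U2 window in CPM on a log axis, each point 1 library, coloured by group. Groups overlap at every copy, whereas copies differ from one another: LOC124904138 lies at 39.7 to 57.0 CPM and the other U2 copies between 6.89 and 18.8 CPM.

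Per kb, the member windows were among the highest of all those tested. LOC124904138, with 102 CPM per kb, ranked first among 690 tested snRNA windows and 84th of 163786 windows of every type. The other 17 members had 13.2 to 33.8 CPM per kb and ranked between 117 and 383, RNVU1-18 being the lowest.

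Signal beside the U1 genes was uneven. Flanks start 350 bp outside a window, and directions follow the strand of the gene. At all 6 U1 copies the 500 bp flank downstream of the gene held 6.86 to 21.3 times the signal of the upstream flank, and in 0 of 12 libraries was the upstream flank higher. RNU1-2 had the steepest difference, with 0.255 CPM per kb upstream, 27.6 in the window and 5.45 downstream (means of 12 libraries). Upstream signal at the 6 copies was 0.255 to 0.528 CPM per kb and downstream signal 2.22 to 6.46.

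U2 copies showed the other pattern more often. At 10 of 12 copies the upstream 500 bp flank was higher than the downstream flank, by 1.33 to 8.19 times, in 12 of 12 libraries each. The exceptions were LOC124904143, where downstream was 1.52 times upstream, and LOC124904138, where it was 17.0 times upstream. LOC124904138 had 0.146 CPM per kb upstream, less than any other U2 copy (1.69 to 21.7), and it lies beside the longest gap in the array, the 14804 bp to the start of LOC124904139. A 500 bp flank reached the window of another copy only at LOC124904135 and LOC124904136, which start 1259 bp apart. Among the other 10 copies the upstream flank was higher at 8, again by 1.33 to 8.19 times. The 5000 bp flanks used above reached another copy at 9 of the 12.

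**Figure D5:**
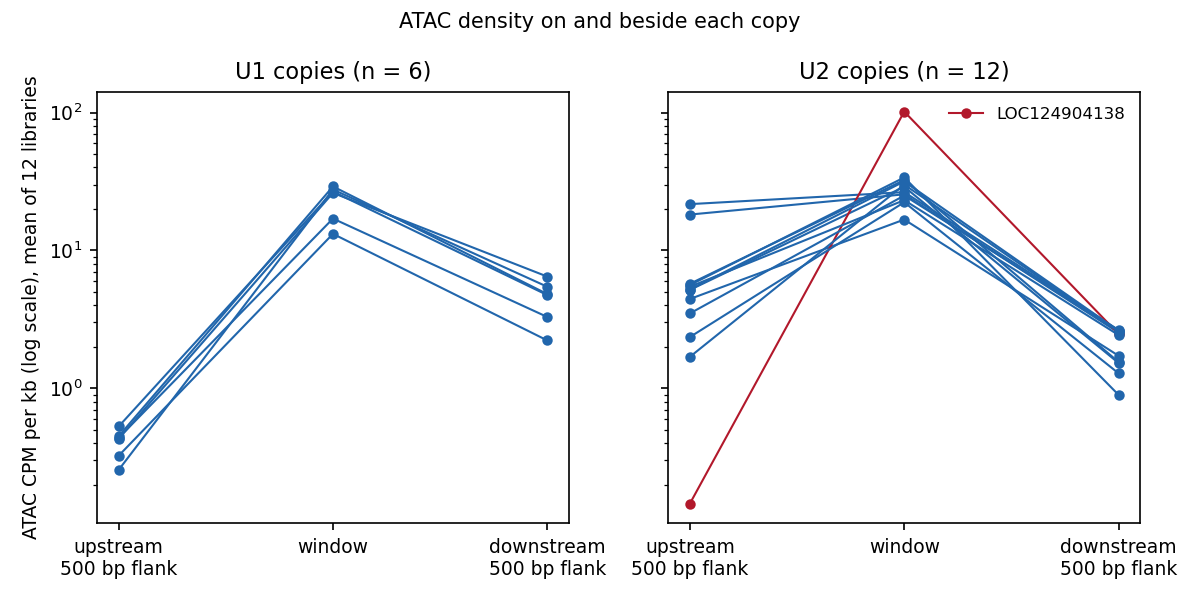
ATAC signal per kb (CPM, log axis, mean of 12 libraries) in the 500 bp upstream flank, the window and the 500 bp downstream flank of each U1 copy (left) and U2 copy (right), 1 line per gene. All U1 lines rise from 0.255 to 0.528 upstream and end at 2.22 to 6.46 downstream; LOC124904138, drawn in red, has the highest window and the lowest upstream flank of the U2 copies.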

How the data were processed

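The authors deposited raw counts per feature for both assays, whole numbers that sum to a different total in each library, with GRCh38 named in the submitters' processing notes. Aligner, counter, use of strand, and handling of multiply mapping or duplicate reads are not given in the sources used here. Interval starts, counted from 0 in the tables, are given counted from 1. RefSeq (GRCh38.p14) supplied gene names at those positions.

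One edgeR 4.0.16 model per assay (R 4.3.3) held its 12 libraries, with filterByExpr, TMM scaling, robust quasi-likelihood dispersions and a prior count of 2. It tested 33893 features of small RNA or 163786 windows of ATAC-seq, and p-values were adjusted over all of them by the Benjamini-Hochberg method. A call is an adjusted p under 0.05. The pipeline was tested on simulated data. Ratios within a library were tested by exact permutation. Replicate pairs all differed by more than counting noise. Named were all members, called or extreme rows of the listed spliceosomal RNAs, the U1 variant with the highest count, 8 guide RNAs and the 3 features most like U1 and U2. Members and lists were chosen with earlier results of these data known.

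Alternatives were DESeq2 1.42.0 (its test or its size factors), total-count scaling, no count filter, no lncRNA or no mitochondrial features, only the 6 libraries compared, a replicate block, other flank widths, and leaving out each library. Same-numbered replicates deviated together only weakly: of 18 pairs per assay, 2 had a correlation over 0.1. Their mean correlation was 0.038 in small RNA and 0.017 in ATAC-seq. Across groups, pairs with different numbers had means of −0.019 and −0.0086.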

Additional observations from a re-analysis of the deposited data

How the results depend on the processing

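Of the counts of members called, 0 of 18 stood under every alternative except for LMNB2 small RNA: DESeq2 called 6 there and 6 in the joint test of the 4 groups, and leaving out 1 library gave 0 to 1. The mean U1 log2 fold change in LMNB2 small RNA ranged from 0.63 to 0.93 over all alternatives, the highest with total-count scaling, under which the median of all features moved from −0.04 to 0.19. The difference in U1 to U2 ratio between LMNB2 and GFP ranged from 0.38 to 0.57 on leaving out 1 library (exact 4-group permutation p 0.0135 to 0.0605), and was 0.28 with RF00004 as the U2 level. Leaving out any 1 LMNB2 library or LMNB1 replicate 1, or keeping only the 6 libraries compared, ended the calls of RNVU1-19 and RNVU1-1, as did total-count scaling (log2 fold change 1.12 and 1.09). Leaving out 1 library gave −0.0022 to 0.19 for RNVU1-1 in LMNB1.

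Uncalled ATAC values near 0 changed sign. On leaving out 1 library the mean U1 log2 fold change ranged from −0.030 to 0.15 in LMNA and −0.0038 to 0.18 in LMNB1, and in LMNB2 from −0.084 to 0.096. The mean U2 value ranged from −0.0086 to 0.19 in LMNA and, in LMNB2, from −0.093 to 0.11. The difference of window to flank ratio between LMNB2 and GFP ranged from −0.034 to 0.094 for U1 and from −0.012 to 0.044 for U2. With total counts the LMNB2 values were 0.10 for U1 and 0.10 for U2, and without mitochondrial windows 0.00042 for U2. In LMNB1 total counts gave log2 fold changes of 0.18 to 0.32 at the U1 windows and 0.23 to 0.35 at the U2 windows. None of these was called (lowest edgeR quasi-likelihood adjusted p 0.0827), and the median over all windows was 0.19. The cause of these shifts was not tested.

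Whether the replicate numbers pair the libraries was not settled. The replicate block raised ATAC calls over all windows from 1 to 60 in LMNA, and left 4 in LMNB1 and 4 in LMNB2. In the ATAC joint tests calls rose from 150 to 553 (3 lamins) and from 69 to 393 (4 groups). Small RNA calls for LMNB2 over all features fell from 901 to 729. Other alternatives moved that count further, in both directions. It was 21 of 28296 features with only the 6 libraries compared, and 282 of 33893 with total counts. Without LMNB2 replicate 2 it was 51 of 37021, whereas without GFP replicate 3 it rose to 2101 of 36091. The share of all features called in LMNB2 small RNA thus depended strongly on the setting. With the replicate block the U1 log2 fold change in LMNB2 small RNA was 0.67 (lowest edgeR quasi-likelihood adjusted p 0.123), 0 members were called in either assay, and the mean ATAC value of U2 in LMNB2 was 0.0030. With 3 libraries per group and a biological coefficient of variation of 0.227, the U1 log2 fold change in LMNB2 had an SE of 0.22.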

Other observations

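Chromatin signal and RNA level were not ordered alike among the U1 variants, which were picked out here after their values were seen. RNVU1-15 had 6.37 to 9.62 CPM in the 12 ATAC libraries but 0.15 to 0.34 CPM in the 12 small RNA libraries. RNVU1-14 had 6.63 to 8.58 CPM in ATAC and 0.51 to 0.87 CPM in small RNA. RNVU1-19 and RNVU1-1, with mean small RNA levels of 34.5 and 36.5 CPM, had the reverse, with ATAC levels of 0.35 to 0.66 CPM and 0.48 to 0.80 CPM. RNVU1-7 was high in both, with 6.73 to 8.92 CPM in ATAC and 56.1 to 104.9 CPM in small RNA. In edgeR 0 of the 12 variant ATAC windows were called for any lamin against GFP, where 0.000611% of all windows were called in LMNA, 0.00305% in LMNB1 and 0.00244% in LMNB2. Before adjustment 2 of the 12 fell under 0.05 in LMNB2, against 5.72% of all windows, and 0 in LMNA and in LMNB1, against 5.19% and 4.78%. DESeq2 called 0 of the 10 to which it gave an adjusted p in LMNA and in LMNB2, and gave none an adjusted p in LMNB1. The lowest quasi-likelihood adjusted p among them was 0.862, in LMNB2.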
